A study of Mus musculus with 15 samples.

Results

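The genes described here encode the proteins of the mitochondrial ribosome. They were taken by symbol, as every *Mrps* or *Mrpl* gene whose name continues with a number, other than pseudogene symbols, that reached 10 counts in at least 3 of the 15 libraries. Of 78 such symbols, 77 met this count limit, out of 55984 symbols in the count table. The rule itself reads names and an overall count, although the gene group was chosen with earlier results of these data known. All 77 also passed the expression filter of the test and were among the 17488 genes tested.

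The libraries were bulk RNA-seq of hepatocytes, the main metabolic cells of the liver, from wild-type adult male mice of the C57BL/6JJcl strain. Live hepatocytes were stained with the DNA dye Hoechst and sorted by flow cytometry, so that all populations shared genotype, strain, sex, tissue and staining. The 2n-whole population held diploid cells and the 4n-whole population held all tetraploid cells. After sorting, diploid cells were spun down at a higher force and for longer than tetraploid cells, so that this handling step differed with ploidy. The part of this step in the differences between diploid and tetraploid populations was not tested. Tetraploid cells were also split by the height of the Hoechst signal. The 4n-bottom population was enriched in binucleated cells with a diploid genome in each nucleus (2x2n). The 4n-top population was enriched in mononucleated cells with a single tetraploid nucleus (1x4n), although the sorted fraction was only moderately pure. Each of 4 mice gave a 2n-whole, a 4n-whole and a 4n-bottom library, and mice 2, 3 and 4 also gave a 4n-top library, so that every comparison could be made within mice. 4n-whole covers the cells that 4n-bottom and 4n-top divide.

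Mitochondria have their own ribosome. Its 2 RNAs, 12S (*mt-Rnr1*) and 16S (*mt-Rnr2*), are transcribed from mitochondrial DNA, whereas every one of its proteins is encoded in the nucleus, made in the cytosol and imported. The small subunit (MRPS proteins) reads the messenger RNA, and the large subunit (MRPL proteins) joins the amino acids. The mitochondrial ribosome makes only the respiratory chain and ATP synthase subunits that mitochondrial DNA encodes. In hepatocytes, which are rich in mitochondria, the supply of its proteins therefore has to be matched between the nuclear and the mitochondrial genome, and the comparison of 2n with 4n cells asks how the transcripts for these proteins stand when the nuclear genome is doubled.

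The deposited counts per library summed to between 22049498 and 42096421, and the 77 genes took between 0.116% and 0.182% of them. Levels are given as CPM, that is as counts-per-million values of a library after TMM scaling. The 6 hepatocyte markers (*Alb*, *Apoa1*, *Ttr*, *Hnf4a*, *Cyp2e1* and *Ass1*) were detected in all libraries and summed to between 66400 and 93900 CPM. The 5 cholangiocyte markers summed to 34.6–47.4 CPM in 2n-whole and to at most 32 CPM in any 4n library, with *Krt7* at 0 in all 4n-whole libraries and *Epcam* at 0 in all 4n-bottom libraries. The 6 endothelial markers summed to 9.84–17.4 CPM in 2n-whole and 2.40–22.4 CPM in 4n-whole. The 6 Kupffer cell markers summed to a mean of 3.68 ± 2.54 CPM (SD, n = 4) in 2n-whole, 0.818 ± 0.377 in 4n-whole (n = 4), 1.30 ± 1.17 in 4n-bottom (n = 4) and 0.924 ± 0.841 in 4n-top (n = 3). All 5 tested Kupffer markers had a fitted log2 fold change below 0 in 4n-whole *versus* 2n-whole (median −2.68), and none was called by edgeR, with 2 at an unadjusted p under 0.05. All 4 tested cholangiocyte markers were also below 0 in this comparison (median −2.81), and 2 of them were called. In 4n-bottom and in 4n-top, each *versus* 2n-whole, 1 cholangiocyte marker was called lower. No tested endothelial or stellate marker was called in these comparisons, and 1 hepatocyte marker was called higher in each. The 6 stellate cell markers summed to at most 5.36 CPM and the 4 lymphocyte markers to at most 0.518 CPM in any library. The 3 erythroid markers (*Hba-a1*, *Hbb-bs* and *Alas2*) summed to 52.7–106 CPM, and *Hbb-bs* was at 0 in all libraries. In 4n-top *Hba-a1* was also at 0 in all libraries, so that *Alas2* alone made up the sum there, 57.2–98.2 CPM. Only 1 of these 3 markers was tested. The part of these other cells in the results was not tested. CPM is relative to the TMM-scaled total of a library, so that the amount per cell was not measured. In bulk samples fewer cells of a type cannot be told apart from less RNA per cell.

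Of the 77 genes, 26 encode small-subunit proteins, 50 encode large-subunit proteins and 1, *Mrps36*, encodes a protein now assigned to the 2-oxoglutarate dehydrogenase complex in place of the ribosome. Among the ribosomal ones, 44 have a bacterial counterpart and 32 were added in the mitochondrial lineage. *Mrps18a* and *Mrps30* keep a small-subunit name but their proteins sit in the large subunit, and they were counted there. The genes lie on 17 chromosomes.

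Expressed as CPM per kb of the canonical transcript, so that genes can be compared with each other, the 77 levels spanned 0.764 to 59.3 with a median of 7.6. The medians were 8.09 CPM per kb for the large subunit and 6.31 CPM per kb for the small subunit, and 8.69 CPM per kb for proteins with a bacterial counterpart and 6.63 CPM per kb for the mitochondrial additions. The highest level was that of *Mrpl38*, a large-subunit protein of the mitochondrial lineage, at 59.3 CPM per kb. *Mrpl12*, whose protein forms the flexible stalk of the large subunit and also binds the mitochondrial RNA polymerase, followed at 52.0 CPM per kb. *Mrps24* stood at 49.3, *Mrpl42* at 31.5 and *Mrpl52* at 25.8 CPM per kb. At the other end were *Mrps18c* at 0.764, *Mrps36* at 1.1 and *Mrps21* at 1.11 CPM per kb. Most proteins of a ribosome are present in 1 copy, whereas the RNA levels of their genes spread over this whole range. Transcript length was taken as that of the canonical annotated transcript, which sets these levels where another transcript is used in liver.

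**Figure D1:**
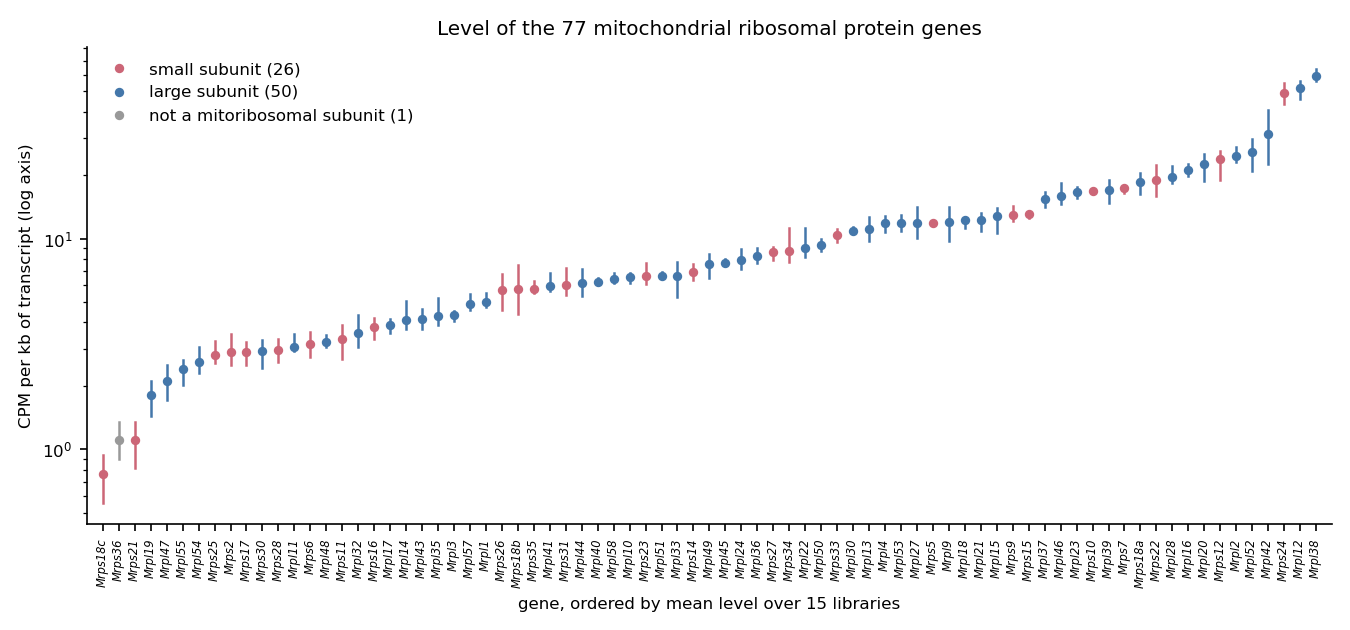
Level of each of the 77 genes as CPM per kb of the canonical transcript, on a log axis, ordered by the mean over the 15 libraries (points) with the range of the 4 population means (vertical lines), in red for the small subunit and blue for the large. The levels ran from 0.764 for *Mrps18c* to 59.3 for *Mrpl38*, and for most genes the range over populations was small beside the distance between genes.

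*Mrps21*, a small-subunit protein with a bacterial counterpart, was just inside it, with 10 or more counts in 12 libraries and between 4 and 46 counts. *Mrps36* had between 10 and 87 counts. The only symbol outside was *Mrpl34*, with 5 counts in all, from 2 libraries, although it encodes a large-subunit protein. In the annotation used here (GENCODE M39), 81.4% of its exon length is shared with a long non-coding RNA on the other strand (*Gm64263*). The 6 pseudogene symbols left out by name had 206 counts over all libraries for *Mrpl23-ps1* and at most 39 for each of the others, so that *Mrpl23* and *Mrps36* may share reads with close copies and are uncertain to that extent.

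After TMM scaling, the summed level of the 77 genes was almost the same in the 4 populations. It was 1563, 1574, 1283 and 1577 CPM in 2n-whole of mice 1 to 4, and 1518, 1440, 1456 and 1627 CPM in 4n-whole. The 4n-bottom libraries had 1451, 1484, 1467 and 1718 CPM. The 4n-top libraries of mice 2 to 4 had 1605, 1433 and 1711 CPM. The groups overlapped, with 2n-whole of mouse 3 the lowest library of all and 4n-bottom of mouse 4 the highest. The 2n-whole libraries had a mean of 1500 ± 144 CPM (SD, n = 4), against 1510 ± 84.8 CPM (n = 4) in 4n-whole. The 4n-bottom mean was 1530 ± 126 CPM (n = 4), the 4n-top mean was 1580 ± 140 CPM (n = 3), and these 4 means differed by less than 1 SD between mice.

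The 2 ribosomal RNAs of the same particle behaved differently. *mt-Rnr2* was at 108000, 129000, 146000 and 148000 CPM in 2n-whole of mice 1 to 4 and at 94900, 41000, 83700 and 54900 CPM in 4n-whole. The 2 groups did not overlap, and the level was lower in 4n-whole in 4 of 4 mice. *mt-Rnr1* was at 71300, 82600, 102000 and 103000 CPM in 2n-whole and at 61900, 26600, 55100 and 34000 CPM in 4n-whole. The log2 fold changes in 4n-whole *versus* 2n-whole were −1.03 (SE 0.152, adjusted p = 7.74e-05, edgeR quasi-likelihood test) for *mt-Rnr2* and −1.10 (SE 0.167, adjusted p = 0.000105) for *mt-Rnr1*. Without the replicate block for mouse, the same changes were −0.955 (adjusted p = 0.0906) and −1.02 (adjusted p = 0.101).

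Both rRNAs were also lower in the 4n fractions. In 4n-bottom *versus* 2n-whole the log2 fold change was −0.737 (SE 0.167, adjusted p = 0.0365) for *mt-Rnr1* and −0.687 (SE 0.151, adjusted p = 0.03) for *mt-Rnr2*, with 3 of 4 mice lower for both. Mouse 1 was higher in 4n-bottom, at 88600 against 71300 CPM for *mt-Rnr1* and at 124000 against 108000 CPM for *mt-Rnr2*. In 4n-top *versus* 2n-whole it was −1.01 (SE 0.183, adjusted p = 0.00167) and −0.947 (SE 0.167, adjusted p = 0.0012), lower in 3 of 3 mice. Without the replicate block neither passed in 4n-bottom (adjusted p = 0.893 and 0.873) or in 4n-top (adjusted p = 0.185 and 0.141), and with DESeq2 and the block neither passed in 4n-bottom (adjusted p = 0.143 and 0.116). The calls in 4n-bottom were also lost without mouse 4 (adjusted p = 0.108 and 0.0728) and without the 2n-whole library of mouse 3 (adjusted p = 0.124 and 0.112). In the reported fit the TMM-scaled rRNA level was thus lower in the 4n populations. The TMM-scaled sum of the mRNAs for the ribosomal proteins overlapped between the populations. The 2n-whole libraries are shared by these 3 comparisons, and the difference between rRNA and protein mRNA was not itself tested. The rRNA levels also depend on the library kit, whose handling of rRNA is not given in the sources used here, and near-identical nuclear copies of mitochondrial DNA make the assignment of such reads uncertain.

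**Figure D2:**
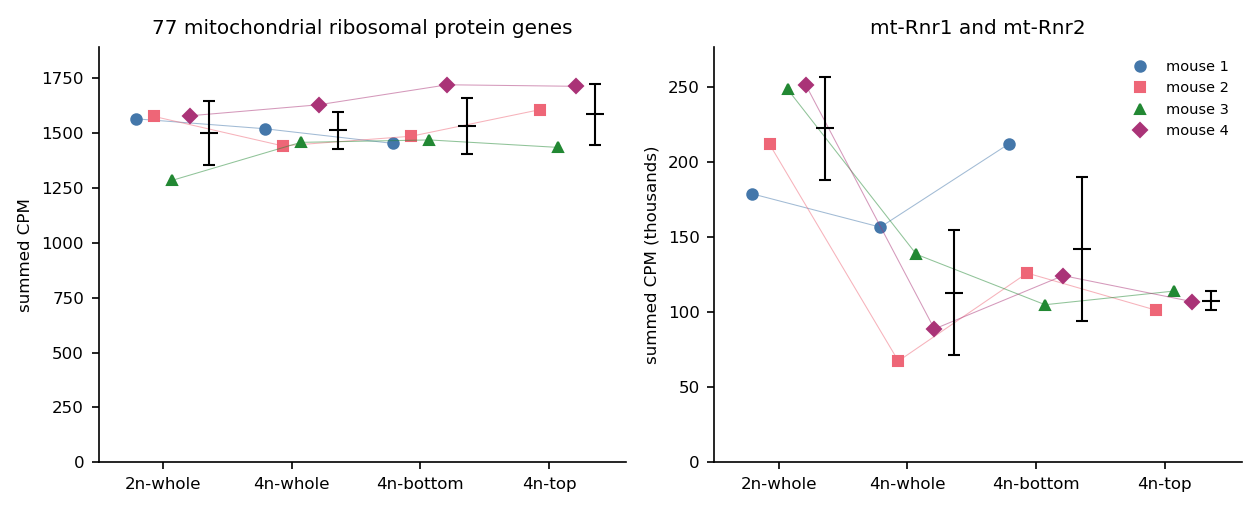
Summed CPM of the 77 mitochondrial ribosomal protein genes (left) and of *mt-Rnr1* and *mt-Rnr2* (right, divided by 1000) in each of the 15 libraries, with marks and thin lines for mice and black bars for the mean ± SD of each population. The sums on the left lie between 1283 and 1718 CPM and overlap in all populations, whereas the rRNA sums of all 4 mice are lower in 4n-whole than in 2n-whole.

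In 4n-whole *versus* 2n-whole, 3 of the 77 genes changed, namely *Mrpl42* and *Mrps18b*, which fell, and *Mrps26*, which rose. Of all 17488 genes tested, 5.47% were called at an adjusted p under 0.05 in this comparison, and the 3 genes are 3.90% of the 77, a share not above the background. By direction, 1 of the 77 rose (1.30%, against 2.93% of all genes) and 2 fell (2.60%, against 2.54%). All 3 also exceeded an absolute log2 fold change of 0.5, as did 3.47% of all genes. For each of the 3, the mean in 4n-whole lay outside the means of both fractions sorted from the same tetraploid cells. *Mrpl42* was at 17.5 CPM in 4n-whole, 26.2 CPM in 4n-bottom and 21.4 CPM in 4n-top. In the same order, *Mrps18b* was at 5.62, 7.34 and 6.97 CPM and *Mrps26* at 29, 22.4 and 26.9 CPM. The 4n-top mean lacks mouse 1, and the reason for this pattern was not tested. The number called was 0 without the replicate block and, when 1 mouse was left out, between 0 (without mouse 4) and 10 (without mouse 3). In these fits 0.229%, 1.37% and 7.57% of all genes were called. The fitted log2 fold change was above 0 for 32 of the 77 genes (41.6%) and for 49.3% of all genes. The median was −0.04 for the 77 genes and −0.01 for all genes. By mouse, the median of the 77 differences (log2 CPM) was −0.08, −0.30, 0.15 and −0.09, a mean of −0.08 ± 0.18 (SD, n = 4), so that it had no common sign. Without the 4n-whole library of mouse 2 the fitted median of the 77 genes was 0.0355. When libraries were scaled to their totals alone, the median of all genes moved to 0.20 and that of the 77 genes to 0.17, and the difference between the 2 medians stayed at −0.03.

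The precision of these estimates limits what a missing call means. For 36 of the 77 genes the 95% interval of the log2 fold change in 4n-whole *versus* 2n-whole lay within ±0.5, and for 72 it lay within ±1. The intervals had a median half-width of 0.314, against 0.531 for all genes tested. These intervals are not adjusted for the number of genes tested, whereas a call needed an adjusted p under 0.05. Differences larger than this half-width were therefore also not called, such as −0.557 for *Mrpl47*, −0.525 for *Mrps2* and 0.449 for *Mrps12*. The smallest detectable difference was not measured.

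*Mrpl42* encodes a large-subunit protein of the mitochondrial lineage, at chr10:95316559-95346150 (GRCm39, minus strand). Its level was 33.6, 37.1, 19.0 and 37.2 CPM in 2n-whole of mice 1 to 4 and 26.2, 12.8, 17.3 and 13.8 CPM in 4n-whole. 2n-whole of mouse 3 lay within the 4n-whole range, and all 4 mice were lower in 4n-whole. The log2 fold change was −0.84 (SE 0.184, adjusted p = 0.00633), a level 0.558 of that in 2n-whole. In 4n-bottom it was at 32.2, 28.0, 14.2 and 30.3 CPM, between the other 2 populations on average, and in 4n-top at 20.4, 21.2 and 22.7 CPM of mice 2 to 4. The corresponding log2 fold changes against 2n-whole, −0.30 (SE 0.179, adjusted p = 0.605) and −0.42 (SE 0.201, adjusted p = 0.431), did not pass the test. The call in 4n-whole *versus* 2n-whole was lost without mouse 4 (−0.66, adjusted p = 0.0881) and without the replicate block for mouse (−0.85, adjusted p = 0.205).

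*Mrps18b* encodes one of 3 proteins related to bacterial S18, a small-subunit protein that was counted among the mitochondrial additions because *Mrps18c* is taken as the counterpart of S18. It lies at chr17:36221266-36227606 (minus strand). It was at 10.2, 11.2, 9.11 and 8.10 CPM in 2n-whole of mice 1 to 4 and at 9.63, 4.21, 5.44 and 3.22 CPM in 4n-whole. Mouse 1 had nearly equal levels, and the other 3 mice had clearly lower ones in 4n-whole. The log2 fold change was −0.85 (SE 0.224, adjusted p = 0.0237). It was at 10.1, 6.72, 4.80 and 7.70 CPM in 4n-bottom, lower than 2n-whole in 4 of 4 mice, with a log2 fold change of −0.43 that did not pass the test (SE 0.220, adjusted p = 0.516). It was at 8.98, 5.31 and 6.62 CPM in 4n-top. The call was lost without mouse 2 (−0.68, adjusted p = 0.137), without mouse 4 (−0.73, adjusted p = 0.172), with the 2n-whole library of mouse 3 left out (−0.76, adjusted p = 0.0763) or the 4n-whole library of mouse 2 left out (−0.71, adjusted p = 0.107), with only the compared populations in the fit (−0.89, adjusted p = 0.0672), and without the replicate block (−0.78, adjusted p = 0.32). A long non-coding RNA on the other strand (*Gm16279*) shares 29.3% of its exon length, and whether the counting used strand is not given in the sources used here.

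The other 2 genes of the S18 family are carried by different parts of the ribosome. *Mrps18a*, whose protein is in the large subunit, was at 11.7, 14.7, 13.4 and 17.7 CPM in 2n-whole of mice 1 to 4 and at 19.8, 18.8, 14.9 and 19.0 CPM in 4n-whole, with a log2 fold change of 0.34 (SE 0.146, adjusted p = 0.179) that did not pass the test. *Mrps18c*, whose protein is in the small subunit, was at 3.77, 3.17, 2.05 and 4.94 CPM in 2n-whole and at 2.63, 0.722, 2.80 and 2.15 CPM in 4n-whole, with a log2 fold change of −0.70 (SE 0.353, adjusted p = 0.264) that did not pass either. *Abraxas1* on the other strand shares 76.9% of the exon length of *Mrps18c*. The 3 genes differed in level, at 18.5, 5.77 and 0.764 CPM per kb for *Mrps18a*, *Mrps18b* and *Mrps18c*.

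*Mrps26* encodes a small-subunit protein of the mitochondrial lineage, at chr2:130405658-130410616 (plus strand). It was at 21.1, 24.9, 16.6 and 15.7 CPM in 2n-whole of mice 1 to 4 and at 21.5, 36.1, 26.5 and 32 CPM in 4n-whole. All 4 mice were higher in 4n-whole, mouse 1 by little, and its 4n-whole level lay within the 2n-whole range. The log2 fold change was 0.54 (SE 0.165, adjusted p = 0.0499), which only just passed the test. It was lost without mouse 2 (0.55, adjusted p = 0.061), without mouse 4 (0.39, adjusted p = 0.397), without the 4n-whole library of mouse 2 (0.46, adjusted p = 0.17) or the 2n-whole library of mouse 3 (0.41, adjusted p = 0.178), and without the replicate block (0.57, adjusted p = 0.291). It was also lost with counts halved (0.53, adjusted p = 0.0528), with DESeq2 size factors in place of TMM (0.53, adjusted p = 0.0538) and with only the compared populations in the fit (0.56, adjusted p = 0.0823). In 4n-bottom *Mrps26* was at 15.5, 21.4, 30.6 and 22.2 CPM, with 2 of 4 mice higher than in 2n-whole, and in 4n-top it was at 24.8, 28.0 and 28.0 CPM.

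*Mrps12* encodes the homolog of bacterial S12, at the decoding centre of the small subunit, and lies at chr7:28439066-28441680 (minus strand). It was at 11.8, 15.0, 13.8 and 16.1 CPM in 2n-whole of mice 1 to 4, at 18.3, 20.3, 16.6 and 22.4 CPM in 4n-whole and at 23.0, 17.7, 15.9 and 20.8 CPM in 4n-bottom. In 4n-top it was at 17.0, 17.3 and 22.4 CPM. All 4n-whole and all 4n-top libraries were above all 2n-whole libraries, and every mouse had its lowest level in 2n-whole. The log2 fold changes were 0.45 in 4n-whole (SE 0.136, adjusted p = 0.0508), 0.45 in 4n-bottom (SE 0.136, adjusted p = 0.205) and 0.40 in 4n-top (SE 0.149, adjusted p = 0.261), and none passed the test. These comparisons share the 2n-whole libraries. Of the 17 processing settings tried, 5 called *Mrps12* in 4n-whole, 2 in 4n-bottom and 1 in 4n-top, each against 2n-whole. *Sars2*, the mitochondrial seryl-tRNA synthetase gene, lies head to head with *Mrps12* and shares 19.3% of its exon length on the other strand. Its log2 fold change in 4n-whole *versus* 2n-whole was −0.02 (adjusted p = 0.964).

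**Figure D3:**
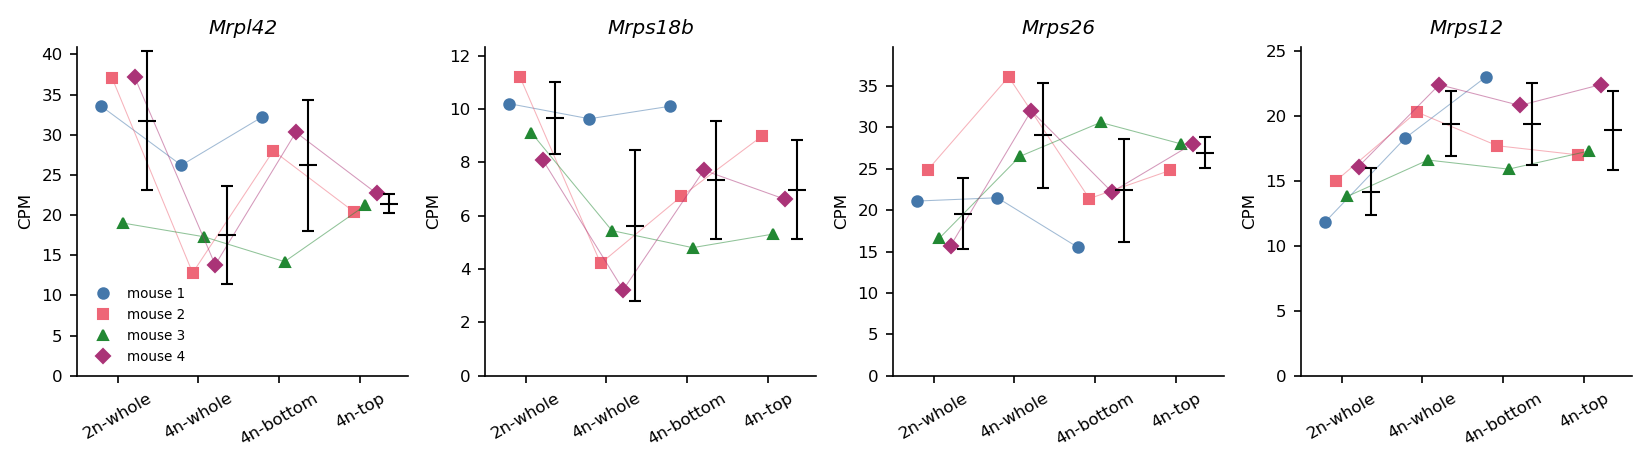
CPM of *Mrpl42*, *Mrps18b*, *Mrps26* and *Mrps12* in each library, with marks and thin lines for mice and black bars for the mean ± SD of each population (n = 4, and n = 3 for 4n-top). All 4 mice move down from 2n-whole to 4n-whole for *Mrpl42* and *Mrps18b* and up for *Mrps26* and *Mrps12*, by little in mouse 1 for *Mrps18b* and *Mrps26*.

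The DNA around the start of the canonical transcript of these 4 genes is shown because they are the members nearest to a change in both directions. For *Mrpl42* and *Mrps12* the whole stretch lies within the annotated gene, which extends further upstream. Each stretch is the strand of the gene, from 150 bases before to 30 bases after the start of the canonical transcript (GRCm39, GENCODE M39), at chr10:95337789-95337968 for *Mrpl42*, chr17:36227461-36227640 for *Mrps18b*, chr2:130405508-130405687 for *Mrps26* and chr7:28441239-28441418 for *Mrps12*. Capitals mark the letters of an NRF1 motif (10 letters, the second run of capitals in *Mrps26*, with any base allowed in the sixth place) or an ETS/GABP motif (CCGGAAG), each searched on both strands. NRF1 and GABP are activators of many nuclear genes for mitochondrial proteins.
Mrpl42: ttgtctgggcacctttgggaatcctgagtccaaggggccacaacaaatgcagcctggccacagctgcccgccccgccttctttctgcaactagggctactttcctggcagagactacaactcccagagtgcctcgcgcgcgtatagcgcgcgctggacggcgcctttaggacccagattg
Mrps18b: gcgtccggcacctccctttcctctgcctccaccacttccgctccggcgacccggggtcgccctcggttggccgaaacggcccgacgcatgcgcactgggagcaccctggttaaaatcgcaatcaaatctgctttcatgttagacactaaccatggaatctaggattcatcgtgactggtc
Mrps26: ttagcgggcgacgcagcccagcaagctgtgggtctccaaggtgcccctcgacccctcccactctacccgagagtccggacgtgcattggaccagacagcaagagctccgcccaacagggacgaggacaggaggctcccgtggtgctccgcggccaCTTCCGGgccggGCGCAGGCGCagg
Mrps12: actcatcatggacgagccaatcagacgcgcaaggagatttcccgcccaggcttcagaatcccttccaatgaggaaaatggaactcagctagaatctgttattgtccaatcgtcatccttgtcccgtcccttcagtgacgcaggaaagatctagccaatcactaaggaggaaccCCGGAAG

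*Mrps26* held an ETS/GABP motif from base 6 and an NRF1 motif from base 18 after the start, and *Mrps12* held an ETS/GABP motif from base 24. A further NRF1 motif of *Mrps26* starts at base 24 and runs past the stretch shown, so that only its first letters are in it. The 2 genes that fell held neither motif in these stretches. A motif for YY1 (AAGATGGC), another common regulator of mitochondrial genes, lay beyond them, from base 35 of *Mrpl42* and, on the other strand, at 177 bases before the start of *Mrps12*. A match is a run of letters and not a measured binding site.

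Over the wider window of 250 bases before to 50 bases after the start, the 77 genes held these motifs more often than protein-coding genes at large. The NRF1 motif was present in 12 of the 77 (15.6%), in 9.05% of 12586 tested protein-coding genes and in 5.81% of all 21555 protein-coding promoters. The ETS/GABP motif was present in 23 (29.9%), against 15.1% and 10.3%. The YY1 motif was present in 6 (7.79%), against 3.46% and 2.46%, and the TATA box (TATAAA) in 8, against 8.62% and 13.2%. At least 1 of the first 3 was present in 35 of the 77 (45.5%) and in 25% of the tested genes, at the same median GC content of 57.7%. The 12 genes with an NRF1 motif had a median log2 fold change of 0.07 in 4n-whole *versus* 2n-whole and the 65 without it −0.04, the 23 with an ETS/GABP motif 0.03 and the 54 without it −0.09, and the 6 with a YY1 motif −0.26 and the 71 without it −0.03. These differences between motif groups were not tested.

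The 77 genes often start back to back with another gene. For 14 of them (18.2%) a protein-coding gene on the other strand starts within 1000 bases upstream, which holds for 7.56% of the tested protein-coding genes. In 1 of these pairs, *Mrpl46* and *Mrps11*, both genes are mitoribosomal, 30 bases apart. They encode a large- and a small-subunit protein, and their log2 fold changes in 4n-whole *versus* 2n-whole were 0.14 (adjusted p = 0.645) and −0.27 (adjusted p = 0.68). *Mrpl43* starts 56 bases from *Twnk*, the mitochondrial DNA helicase gene, *Mrpl32* 54 bases from *Psma2*, a proteasome subunit gene, and *Mrpl49* 52 bases from *Fau*, which encodes the cytosolic ribosomal protein S30. *Mrps18b* starts 598 bases from *Ppp1r10*, whose log2 fold change was 0.12 (adjusted p = 0.553) beside −0.85 for *Mrps18b*. No partner of the 14 was called in this comparison.

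Among the members that came next in 4n-whole *versus* 2n-whole, *Mrps2*, a small-subunit protein gene with a bacterial counterpart, was at 22.1, 19.3, 14.7 and 21.3 CPM in 2n-whole of mice 1 to 4 and at 20.6, 8.54, 14.5 and 11.6 CPM in 4n-whole. Its levels were nearly equal in mice 1 and 3 and lower in 4n-whole of mice 2 and 4 (log2 fold change −0.53, SE 0.165, adjusted p = 0.06). *Mrpl39* was at 48.3, 51.5, 42.4 and 46.3 CPM in 2n-whole and at 40.0, 27.7, 43.2 and 35.0 CPM in 4n-whole, lower in 3 of 4 mice (−0.37, SE 0.121, adjusted p = 0.0665). *Mrpl15* and *Mrpl9*, both large-subunit proteins with a bacterial counterpart, were higher in 3 of 4 mice, at 0.30 (SE 0.113, adjusted p = 0.116) and 0.37 (SE 0.138, adjusted p = 0.121). None of these 4 passed the test in the reported fit. Of the 17 processing settings tried, 7 called *Mrps2*, 6 *Mrpl39*, 4 *Mrpl15* and 3 *Mrpl9*. ComBat-seq followed by DESeq2 was among them for each gene.

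Some genes were separated between the groups without passing the test. *Mrps12* was higher in every 4n-whole library than in any 2n-whole library, where 2.71% of all genes did so in this direction. *Mrpl32*, *Mrpl47* and *Mrpl19* were lower in every 4n-whole library, 3 of 77 (3.90%) beside 3.09% of all genes. For *Mrpl47* the levels were 9.10, 8.21, 6.89 and 9.68 CPM in 2n-whole of mice 1 to 4 and 6.46, 5.73, 4.96 and 5.88 CPM in 4n-whole (log2 fold change −0.56, SE 0.194, adjusted p = 0.0888). Both directions were near the background.

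By subunit, 1 of 26 small-subunit genes rose (*Mrps26*) and 1 fell (*Mrps18b*), and 1 of 50 large-subunit genes fell (*Mrpl42*). The median log2 fold changes were −0.06 and −0.03. All 3 changed genes belong to the 32 mitochondrial additions, whereas none of the 44 with a bacterial counterpart was called. In the edgeR test *Mrps26* was just inside the limit (adjusted p = 0.0499). *Mrps12*, which has a bacterial counterpart, was just outside it (adjusted p = 0.0508). In 4n-whole *versus* 2n-whole 5.47% of all genes tested were called. At an unadjusted p under 0.05, 4 of the 32 were higher and 6 lower, and 5 of the 44 were higher and 7 lower. Of all 77 genes 9 were higher (11.7%, against 10.3% of all genes tested) and 13 lower (16.9%, against 10.1%). The median log2 fold changes of the 2 groups were −0.0351 and −0.0343, and the difference in the number of calls was not tested.

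**Figure D4:**
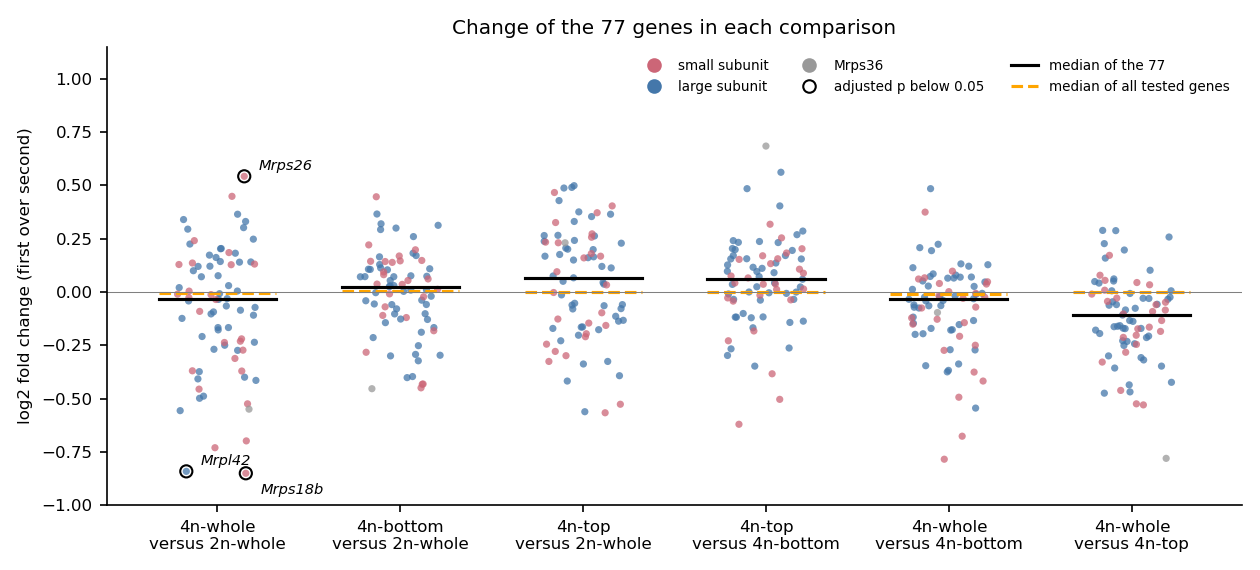
Fitted log2 fold change of each of the 77 genes in the 6 comparisons, red for the small subunit, blue for the large and grey for *Mrps36*, with circles around genes at an adjusted p under 0.05 and lines for the median of the 77 (black) and of all tested genes (orange, dashed). Circled genes occur only in 4n-whole versus 2n-whole (*Mrpl42*, *Mrps18b* and *Mrps26*), and the medians of the 77 lie between −0.11 and 0.07.

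The further genes of known role were not called in 4n-whole *versus* 2n-whole in the reported fit. *Mrps7*, a scaffold of the small-subunit head, was at 33.3, 36.7, 27.2 and 33.6 CPM in 2n-whole of mice 1 to 4 and at 38.8, 31.5, 33.3 and 39.1 CPM in 4n-whole. *Mrps15* was at 30.1, 22.6, 13.8 and 28.4 CPM and at 28.0, 25.7, 23.8 and 24.6 CPM. *Mrps22*, in which inherited mutations cause respiratory chain deficiency, was at 34.7, 26.6, 18.5 and 27.4 CPM in 2n-whole and between 14.6 and 27.1 CPM in 4n-whole. Its log2 fold change of −0.46 did not pass the test (SE 0.154, adjusted p = 0.0796), and the groups overlapped for all 3 genes.

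In the large subunit, *Mrpl3*, near the peptidyl transferase centre, had one of the smallest spreads of all members, with a within-population SD of 0.0956 on the log2 CPM scale. It was at 16.0, 14.2, 16.8 and 17.4 CPM in 2n-whole of mice 1 to 4 and between 16.2 and 19.0 CPM in 4n-whole. The stalk genes overlapped as well. *Mrpl12* was at 116, 116, 102 and 114 CPM in 2n-whole and at 115, 141, 127 and 151 CPM in 4n-whole, higher in 3 of 4 mice (log2 fold change 0.25, SE 0.0988, adjusted p = 0.146). *Mrpl10*, which anchors *Mrpl12*, was at 12.8, 12.5, 9.01 and 11.3 CPM and at 14.0, 8.90, 9.73 and 9.64 CPM, and *Mrpl11*, at the base of the stalk, at 11.0, 8.00, 8.21 and 8.68 CPM and at 8.96, 8.82, 6.45 and 11.2 CPM.

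The large-subunit genes with other roles lay in the same range. *Mrpl23* and *Mrpl45* encode proteins at the exit of the peptide tunnel, and *Mrpl45* holds the ribosome at the inner membrane. *Mrpl23* was at 16.0, 9.48, 9.88 and 13.2 CPM in 2n-whole of mice 1 to 4 and at 12.6, 10.7, 9.49 and 12.3 CPM in 4n-whole, and *Mrpl45* at up to 22.7 CPM and at 23.7, 12.7, 17.5 and 18.7 CPM. *Mrpl58*, a peptidyl-tRNA hydrolase that frees stalled ribosomes, was between 15.1 and 17.7 CPM in 2n-whole and at most 19.5 CPM in 4n-whole. *Mrpl44* was at 7.74, 8.69, 5.74 and 8.13 CPM in 2n-whole and at 11.0, 8.02, 7.43 and 7.05 CPM in 4n-whole. *Mrps30* was between 8.07 and 14.0 CPM in 2n-whole and between 7.94 and 11.8 CPM in 4n-whole. None of these genes passed the test.

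In 4n-bottom *versus* 2n-whole, the comparison of binucleated tetraploid with diploid cells, none of the 77 genes was called, where 0.492% of all genes were (0.257% higher and 0.234% lower). At an unadjusted p under 0.05 there were 4 higher (5.19%, against 5.52% of all genes) and 4 lower (5.19%, against 4.64%). No member had groups that did not overlap, where 1.69% of all genes did upwards and 1.83% downwards. DESeq2 with the same block also called none, where 1.01% of all genes were. ComBat-seq adjustment followed by DESeq2 called 2 (*Mrpl15* and *Mrps12*), beside 1.18% of all genes. The median log2 fold change was 0.02, and 43 of the 77 genes lay above 0 (55.8%, against 50.7% of all genes). Per-mouse medians were −0.16, −0.07, 0.12 and 0.10. The 95% interval lay within ±0.5 for 44 genes and within ±1 for 75.

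The largest difference upwards in this comparison was that of *Mrps12* (above). *Mrpl15* was at 47.1, 42.4, 41.1 and 47.1 CPM in 2n-whole of mice 1 to 4 and at 42.1, 59.3, 65.4 and 65.4 CPM in 4n-bottom, higher in mice 2 to 4 and lower in mouse 1 (log2 fold change 0.37, SE 0.113, adjusted p = 0.214). Without mouse 1 it was called, at 0.54 (adjusted p = 0.0212). *Mrps31*, a small-subunit protein of the mitochondrial lineage, was at 22.2, 22.1, 16.8 and 27.1 CPM in 2n-whole and between 15.9 and 19.6 CPM in 4n-bottom of mice 1, 2 and 4, with mouse 3 lowest as in 2n-whole, lower in 4 of 4 mice (−0.43, SE 0.148, adjusted p = 0.279). *Mrps2* was at 18.4, 14.6, 11.9 and 12.5 CPM in 4n-bottom, again lower in 4 of 4 mice (−0.45, SE 0.164, adjusted p = 0.317). *Mrpl54* and *Mrpl35* followed downwards, at −0.40 (adjusted p = 0.405) and −0.40 (adjusted p = 0.453), and *Mrpl9* and *Mrps18a* upwards, at 0.30 (adjusted p = 0.452) and 0.31 (adjusted p = 0.459). *Matk* on the other strand shares 94.4% of the exon length of *Mrpl54*.

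In 4n-top *versus* 2n-whole, the comparison of cells enriched for mononucleated tetraploids with diploid cells in 3 mice, none of the 77 genes was called, where 1.06% of all genes were (0.515% higher and 0.543% lower, and 0.961% past the fold limit of 0.5). At an unadjusted p under 0.05 there were 9 higher (11.7%, against 5.99% of all genes) and 3 lower (3.90%, against 5.31%). DESeq2 with the same block called 1 (*Mrpl19*), beside 2.33% of all genes. ComBat-seq followed by DESeq2 called 3 (*Mrpl9*, *Mrpl15* and *Mrpl19*), beside 2.28% of all genes. The median log2 fold change was 0.07, with 43 of 77 above 0, and the per-mouse medians of mice 2, 3 and 4 were −0.02, 0.14 and 0.04. The interval lay within ±0.5 for 31 genes and within ±1 for 74.

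*Mrpl9* was at 14.1, 13.8 and 17.7 CPM in 2n-whole of mice 2, 3 and 4 and 19.0 CPM in mouse 1, and at 20.4, 24.8 and 24.6 CPM in 4n-top. All 4n-top libraries were above all 2n-whole libraries (log2 fold change 0.50, SE 0.153, adjusted p = 0.137). *Mrpl19*, a large-subunit protein gene with a bacterial counterpart, was between 10.0 and 11.2 CPM in the 2n-whole libraries and at 7.43, 7.11 and 6.90 CPM in 4n-top. Its groups were also apart (−0.56, SE 0.176, adjusted p = 0.147), and it had the smallest within-population SD of all members, 0.0946 on the log2 CPM scale. *Gcfc2* on the other strand shares 35.6% of its exon length. In this comparison 6 of the 77 genes were higher in every 4n-top library than in any 2n-whole library (7.79%, against 4.82% of all genes), namely *Mrpl9*, *Mrps12*, *Mrpl15*, *Mrpl52*, *Mrpl2* and *Mrpl3*, and 3 were lower (3.90%, against 4.39%), namely *Mrpl19*, *Mrpl32* and *Mrps17*.

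In 4n-top *versus* 4n-bottom, the comparison of mononucleated with binucleated tetraploid cells, none of the 77 genes was called, where 0.0114% of all genes were, that is 2 of 17488. At an unadjusted p under 0.05 there was 1 member higher (1.30%, against 1.19% of all genes) and none lower (against 1.6%), and DESeq2 and ComBat-seq with DESeq2 called none. The median log2 fold change was 0.06 and 48 of the 77 lay above 0 (62.3%, against 50.2% of all genes), with per-mouse medians of 0.11, 0.03 and −0.05 in mice 2, 3 and 4. The interval lay within ±0.5 for 44 genes and within ±1 for 71. The 4n-top population was only partly pure, and a difference between pure populations was not measured.

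The member with the smallest p in this comparison was *Mrpl33*, a small large-subunit protein with a bacterial counterpart. It was at 3.63, 2.93, 4.39 and 4.52 CPM in 4n-bottom of mice 1 to 4 and at 5.66, 5.9 and 5.4 CPM in 4n-top of mice 2 to 4. The groups did not overlap, as for 5 of the 77 genes, 3 higher (3.90%, against 1.37% of all genes) and 2 lower (2.60%, against 1.78%). The log2 fold change was 0.56 (SE 0.243, adjusted p = 1). In 2n-whole *Mrpl33* was at 5.77, 5.31, 3.96 and 4.2 CPM. *Mrpl19* (−0.35, SE 0.175, adjusted p = 1), *Mrps18a* (−0.26, adjusted p = 1), *Mrps30* (−0.27, adjusted p = 1) and *Mrps18c* (−0.50, adjusted p = 1) came next downwards, and *Mrpl14* (0.40, adjusted p = 1), *Mrpl22* (0.48, adjusted p = 1) and *Mrpl28* (0.23, adjusted p = 1) upwards.

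Between 4n-whole and the 2 fractions sorted from the same tetraploid cells, no member was called either. In 4n-whole *versus* 4n-bottom 0.00572% of all genes were called, and at an unadjusted p under 0.05 there were 2 members higher (2.60%, against 2.72%) and 5 lower (6.49%, against 2.85%). The smallest p belonged to *Mrpl42* (log2 fold change −0.54, SE 0.183, adjusted p = 0.734, lower in 3 of 4 mice). In 4n-whole *versus* 4n-top 0% of all genes were called by edgeR, and at an unadjusted p under 0.05 there were 6 members lower in 4n-whole (7.79%, against 1.96% of all genes) and none higher (against 2.05%). There the median of the 77 genes was −0.11 and 19 of them lay above 0 (24.7%, against 49.9% of all genes). The per-mouse medians were −0.33, 0.00373 and −0.08 in mice 2, 3 and 4, so that the shift was largest in mouse 2. The 4n-whole library of mouse 2 had the lowest total of all libraries (22049498 counts). Without that library the median of the 77 genes was −0.0653. Over all 4 populations, the joint test for any difference called none of the 77 genes, where 1.95% of all genes were called. At an unadjusted p under 0.05 there were 12 (15.6%, against 13% of all genes), and *Mrpl42* had the smallest adjusted p, 0.0554.

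The 77 genes varied between mice about as much as other genes of their level. The SD within populations on the log2 CPM scale had a median of 0.252 for the 77 genes, 0.467 for all tested genes and 0.261 for the 3839 tested genes within 1 log2 unit of the median level of the 77. It was largest for *Mrps36* (0.703), *Mrps21* (0.652) and *Mrps18c* (0.593), the 3 genes of lowest level, and it was 0.447 for *Mrpl42* and 0.461 for *Mrps18b*. The 2 genes that fell were therefore among the more variable members.

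Base composition moved with the fold change over all genes in 4n-whole *versus* 2n-whole, and its part in the result was not tested other than by a correction. With all genes in 4 equal groups from lowest to highest GC content of the transcript, the median log2 fold change was −0.18, −0.05, 0.05 and 0.15, and for the 14, 25, 18 and 20 members in these groups it was −0.20, −0.03, −0.02 and 0.01. The transcripts of *Mrpl42*, *Mrps18b* and *Mrps26* have 44.5%, 53.6% and 49.2% GC, beside a median of 49.2% for the members and 49.4% for all tested genes. When GC content and length of the transcripts were corrected for, the 3 log2 fold changes were −0.95 (adjusted p = 0.000382), −1.02 (adjusted p = 0.00417) and 0.64 (adjusted p = 0.00911), and 8 members were called. With this correction 9.56% of all genes were called, against 5.47% in the reported fit.

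The other genes of mitochondrial translation were read from lists written for this report. The 5 further ribosomal proteins with other symbols gave no call, with a median log2 fold change of 0.08 in 4n-whole *versus* 2n-whole. Among them, *Dap3*, the GTP-binding protein of the small subunit, was at 0.33 (adjusted p = 0.134) and *Gadd45gip1* at 0.62 (adjusted p = 0.148). Of 26 genes for assembly and rRNA modification, 1 rose, *Mettl17*, a factor for small-subunit assembly, at 0.75 (SE 0.182, adjusted p = 0.0136, higher in 4 of 4 mice, 9.94 against 5.87 CPM). None of 15 translation factors (median −0.17) and none of 20 tRNA synthetases (median 0.02) was called. *Oxa1l*, which inserts new peptides into the inner membrane, was at −0.38 (adjusted p = 0.0693) and the elongation factor *Gfm1* at −0.22 (adjusted p = 0.248).

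The next lists hold genes that act before translation, and their counts stand beside 5.47% of all genes called in this comparison, with no test between lists. Of 17 tested genes for mitochondrial DNA and RNA handling, 2 fell and 1 rose. These were *Pnpt1*, the mitochondrial polynucleotide phosphorylase, at −0.60 (SE 0.161, adjusted p = 0.0262), *Ssbp1*, the mitochondrial single-stranded DNA binding protein, at −0.56 (SE 0.157, adjusted p = 0.0323), and *Polg*, the catalytic subunit of the mitochondrial DNA polymerase, at 0.45 (SE 0.128, adjusted p = 0.0375). Of 15 regulators of nuclear mitochondrial genes, 2 rose and 1 fell, with a median of 0.11 (a list not plotted). *Atf4*, the main factor of the integrated stress response, rose by 0.54 (SE 0.106, adjusted p = 0.00215) and *Pprc1*, a coactivator of the PGC-1 family, by 0.50 (SE 0.146, adjusted p = 0.0413). *Ppargc1a*, which encodes the coactivator PGC-1α, was at −0.59 (SE 0.129, adjusted p = 0.00682), 15.5 against 23.5 CPM. Each of the 6 genes moved in the same direction in 4 of 4 mice.

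Without the replicate block, 40 of all genes were called in this comparison in place of 957, so that these list counts rest on the comparison within mice. Of the 13 messenger RNAs that it translates, 12 fell in 4n-whole *versus* 2n-whole (median −1.46), led by *mt-Atp6* at −1.81 (SE 0.221, adjusted p = 4.77e-06), *mt-Nd2* at −1.89 (SE 0.238, adjusted p = 6.81e-06) and *mt-Nd4* at −1.74 (SE 0.220, adjusted p = 6.99e-06). In 4n-bottom 8 of the 13 fell (median −0.999) and in 4n-top 11 of the 13 (median −1.43), all against the same 2n-whole libraries. Of 86 tested nuclear subunits of the respiratory chain, 10 fell and 1 rose in 4n-whole, with a median of −0.08, among them *Cox7b* (−0.72, adjusted p = 0.00661), *Cox6b1* (−0.51, adjusted p = 0.00756) and *Uqcrb* (−0.80, adjusted p = 0.00995). Of 83 tested cytosolic ribosomal protein genes, 8 rose and none fell (5 were lower at an unadjusted p under 0.05), with a median of 0.09, led by *Rps19* (0.48, adjusted p = 0.00549), *Rpsa* (0.48, adjusted p = 0.0124) and *Rpl37a* (0.42, adjusted p = 0.0197). In 4n-top *versus* 2n-whole, 76 of these 83 lay above 0 (median 0.22) and none was called, although 30 had an unadjusted p under 0.05.

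**Figure D5:**
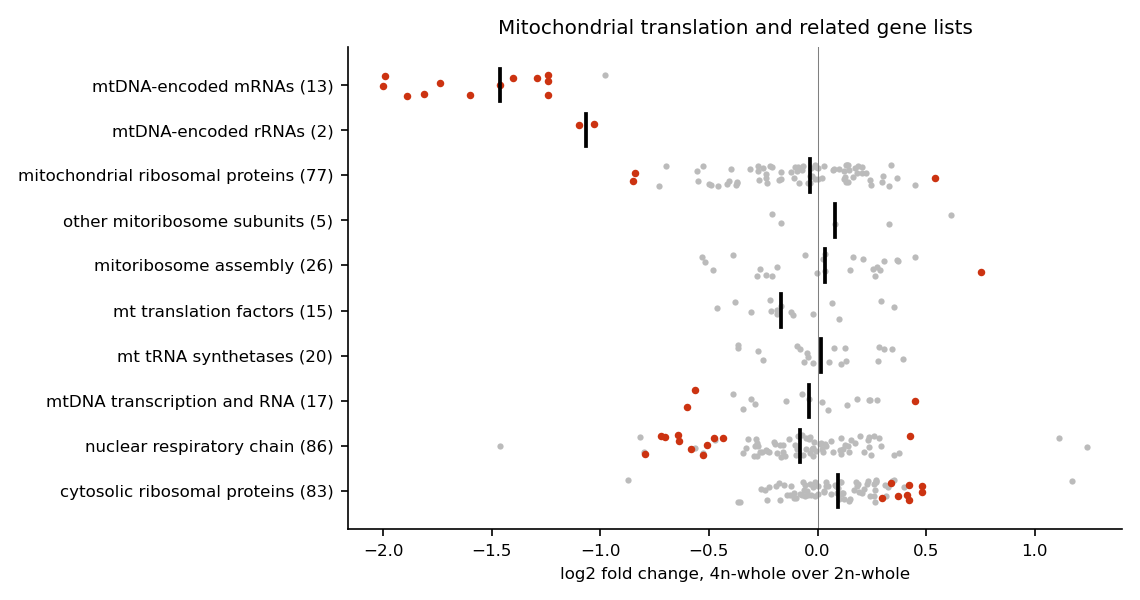
Fitted log2 fold change in 4n-whole over 2n-whole for the genes of each list (number of tested genes in brackets), red where the adjusted p was under 0.05, with black lines for the list medians. The mtDNA-encoded mRNAs (median −1.46) and rRNAs lie far to the left of the nuclear lists plotted, whose medians lie between −0.17 and 0.09, the 77 mitochondrial ribosomal protein genes at −0.04.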

How the data were processed

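The 15 libraries were made from total RNA with a SMART-Seq Stranded kit (per the labels). According to the submitters' processing notes, reads were aligned to GRCm39 with STAR 2.7.11a and counted with featureCounts (Subread); the Subread version, annotation, strand and read-pair settings are not given in the sources used here. The deposited values are raw gene counts, with no normalization by the authors. Among counts of 1 to 10, between 74.2% and 81.4% were even, so that both reads of a pair may have been counted and counts overstate independent fragments.

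Counts were analysed with edgeR 4.0.16 (R 4.3.3): filterByExpr defaults (minimum count 10, minimum total 15), TMM scaling, and a two-sided quasi-likelihood test with population and mouse as terms over all 15 libraries, Benjamini-Hochberg adjusted over 17488 genes. CPM used TMM-scaled library sizes, and per-mouse differences used log2 CPM with a prior count of 2. A gene was called at an adjusted p under 0.05. Standard errors and 95% intervals came from the same fit. The subject number in the labels marks the mouse, and deviations of libraries from the same mouse correlated by 0.158 on average (20 of 21 pairs over 0.1). No 2 libraries of the same population agreed within sampling noise. Replicates of a population came from separate mice.

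The study's own test (ComBat-seq on mouse, then DESeq2 1.42.0, sva 3.50.0), DESeq2 with the block, other scalings and filters, and left-out mice were tried as alternatives. The edgeR script was tested on simulated data. Members, gene lists and markers were chosen with earlier results of these data known. Named were all called members, the 4 of smallest p per direction in 4 comparisons, the 5 highest and 3 lowest per kb, landmarks of known role, members at the count limit, both rRNAs and up to 3 genes of smallest p per other list; *Mrpl32*, *Mrpl47*, *Mrpl2*, *Mrps17*, partner genes and overlapping genes were named after their values were seen. Gene positions, transcript lengths and promoters came from GENCODE M39 on GRCm39 in place of a table on an older build, and all 77 genes matched.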

Additional observations from a re-analysis of the deposited data

Results flagged for a closer look

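In 108 groups of 4 libraries, covering the summed level, the named members and both rRNAs, a library stood far from the other 3 by Dixon's test in 5, and chance alone flags about 1 in 20. The summed level of the 77 genes was low in 2n-whole of mouse 3 (1283 CPM, the others 1563 to 1577) and high in 4n-bottom of mouse 4 (1718 CPM, the others 1451 to 1484). *Mrpl12* was low in 2n-whole of mouse 3 (102 CPM, the others 114 to 116), *Mrpl10* was high in 4n-whole of mouse 1 (14.0 CPM, the others 8.90 to 9.73) and *Mrpl58* was high in 4n-bottom of mouse 4 (21.3 CPM, the others 14.3 to 15.0).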

How the results depend on the processing

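The number of members called in 4n-whole *versus* 2n-whole, 3 in the reported fit, moved with the processing. It was 0 without the replicate block for mouse (13 members at an unadjusted p under 0.05, and 40 genes called in place of 957) and 1 with only the compared populations. With counts halved it was 4 (0 higher and 4 lower) and with DESeq2 size factors in place of TMM 2 (0 higher and 2 lower), so that the upward call of *Mrps26* was lost in both. It was 14 with library totals in place of TMM (12 higher and 2 lower, in place of 1 and 2, with 2580 genes called), 6 without the filter on low counts, 6 with DESeq2 and the block (2 higher and 4 lower), 14 with ComBat-seq and DESeq2 (6 higher and 8 lower) and 8 with the GC and length correction. The share of all genes called moved too, from 5.47% in the reported fit. It was 14.8% with library totals, 2.99% without the filter, 8.18% with DESeq2, 6.18% with ComBat-seq and 9.56% with the correction. With only the compared populations it was 2.17%, with counts halved 7.19% and with DESeq2 size factors 5.53%. Leaving out 1 mouse gave 0 to 10 members: 7 without mouse 1, 1 without mouse 2, 10 without mouse 3 and 0 without mouse 4. In the same order, 6.32%, 2.57%, 7.57% and 1.37% of all genes were called. Leaving out 1 library, chosen after seeing the data, gave 1 member (4n-whole of mouse 2) and 3 (2n-whole of mouse 3), beside 2.76% and 4.89% of all genes. *Mrpl42* was called in 15 of 17 settings, the reported one included, *Mrps18b* in 11 and *Mrps26* in 9, each in 1 direction throughout. With library totals the median of the members was 0.169 in 4n-whole and 0.235 in 4n-top *versus* 2n-whole, beside 0.2 and 0.168 for all genes.

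In 4n-bottom *versus* 2n-whole the count of 0 became 1 with library totals, 2 with ComBat-seq and DESeq2, 1 with the GC and length correction and 0 to 1 with a mouse left out (1 without mouse 1). Of all genes 0.755%, 1.18%, 2.82% and, without mouse 1, 0.412% were called there. In 4n-top *versus* 2n-whole the count became 2 with library totals, 1 with DESeq2, 3 with ComBat-seq and DESeq2, 3 with the compared populations only and 0 to 1 with a mouse left out (1 without mouse 1). Of all genes 3.41%, 2.33%, 2.28%, 3.01% and, without mouse 1, 1.32% were called there. In 4n-whole *versus* 4n-bottom the count became 1 without the filter and 0 to 1 with a mouse left out (1 without mouse 3), *Mrpl42* in both. Without the filter 0.211% of all genes were called there, and without mouse 3 0.389%. In 4n-top *versus* 4n-bottom and 4n-whole *versus* 4n-top no setting called a member. In the other 5 comparisons the count without the block was also 0. The cause of lost or gained calls was not tested. Depth limits *Mrps21*, *Mrps36* and *Mrps18c* most, with 4 to 191 counts.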
